A study of Mus musculus with 23 samples.

Results

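The genes described here are 9 of the MHC class II presentation pathway: H2-Aa, H2-Ab1, H2-Eb1, Cd74, H2-DMa, H2-DMb1, H2-DMb2, H2-Oa and Ciita. They were chosen by gene symbol, out of 52636 genes in the deposited tables, and each symbol matched 1 gene. RNA was sequenced from mouse bone marrow-derived macrophages, which are macrophages grown in culture from marrow cells, with genotypes labelled wild type (WT) or Stk40 KO. Stk40 is a pseudokinase gene. Libraries came from untreated cells, labelled T0, and from cells given lipopolysaccharide (LPS), labelled T6, T16 and T32. The labels name no unit for these times. Each group had 3 libraries, except WT at T16 with 2, which makes 11 WT and 12 KO libraries. The labels give no strain, age, knockout design or link between libraries and mice, so each p-value reflects just the spread among these libraries, which may be technical.

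MHC class II molecules display peptides from endocytosed proteins to CD4+ T cells. An alpha and a beta chain assemble in the endoplasmic reticulum on the invariant chain, which Cd74 encodes. In endosomes cathepsins trim that chain to a short peptide, and H2-DM (H2-DMa with H2-DMb1 or H2-DMb2) exchanges it for antigenic peptide. H2-O, whose alpha chain is H2-Oa, holds H2-DM back. CIITA, the product of Ciita, is the master coactivator of these genes and is carried to their promoters by factors bound at the X and Y boxes. Macrophages make little class II at rest and more after interferon gamma.

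Totals ran from 19455080 to 44097733 counts per library, and the lowest raw count of a member in any library was 2698 for Cd74, 539 for H2-Aa, 18 for Ciita, 11 for H2-DMb2 and 10 for H2-Oa. Stk40 RNA was not lower in the libraries labelled KO: group means ran from 48.1 to 312 CPM in WT and from 56.5 to 376 CPM in KO libraries. Genotype is thus known from the labels alone, and KO below means a library so labelled. Some libraries stood apart. Mitochondrial genes took 0.35% of counts in KO T0 replicate 1, where the remaining T0 libraries gave 1.38% to 1.82%. At T6 this share was 1.1% and 0.68% in replicate 2 of WT and KO and 0.35% to 0.47% in the rest. WT T16 replicate 2 had the highest Saa3 level, 47800 CPM. Y-linked transcripts were found in 4 WT libraries, 1 per time point (replicate 2 at T0 and T16, replicate 1 at T6, replicate 3 at T32), and in no KO library. The 7 macrophage markers matched summed to 14100 to 29500 CPM in every library.

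In GRCm38, 7 of the members lie on chromosome 17 in the order H2-Oa (34092340 to 34095234), H2-DMa (34119541 to 34139101), H2-DMb2 (34143307 to 34151555), H2-DMb1 (34153072 to 34160230), H2-Ab1 (34257689 to 34269419), H2-Aa (34282744 to 34287823) and H2-Eb1 (34305867 to 34316674). H2-Aa is on the minus strand and the other 6 are on the plus strand. Ciita and Cd74 lie on other chromosomes. RefSeq promoter sequences on GRCm38.p6 (250 bases before to 50 after the gene start) matched 6 of the 9 members. They were read for the Y box, searched as TGATTGG, and for an X-box hexamer starting 20 to 45 bases before it. The hexamers searched were AGCAAC, its variant AGTAAC, the form GGCAAC with another first base, and likewise GGTAAC. These letters were chosen after the promoters had been seen. The windows below show the arrangement in 2 chain genes, and the H2-DMb2 promoter, which has the Y box without any of the hexamers searched. A promoter without a match to these letters is not thereby shown to lack an X box. Capitals mark the hexamer and the Y box, and each window reads 5′ to 3′ on the gene's own strand.
H2-Aa, chr17:34287861-34287915, minus strand: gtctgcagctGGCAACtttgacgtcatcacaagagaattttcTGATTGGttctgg
H2-Eb1, chr17:34305764-34305818, plus strand: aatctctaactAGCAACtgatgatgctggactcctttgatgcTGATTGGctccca
H2-DMb2, chr17:34145115-34145169, plus strand: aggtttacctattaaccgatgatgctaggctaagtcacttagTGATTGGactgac

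The hexamer began 32 bases before the Y box in H2-Aa and 31 bases before it in H2-Eb1. The promoters of H2-Oa and H2-DMb1 also held both, 32 bases apart. Over the libraries their log2 CPM correlated with H2-Aa at r = −0.16 and 0.10. Within groups, with each group's mean taken off, r was 0.37 and 0.67. Neither of the 2 H2-DMa promoters held a Y box, and H2-DMa correlated with H2-Aa at r = 0.74, both over the libraries and within groups. On either strand the Y box was present in 7.82% of 32851 promoters of the same length, and a hexamer in 35.8%. Both in this order and spacing were present in 69 promoters, or 0.21%. A match describes letters in a window and shows no binding.

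The members spanned a wide range of level. Compared per length, as the authors' size-factor-adjusted RPKM (nRPKM), the level in WT T0 libraries was 230 ± 73.0 for Cd74 (mean ± SD, n = 3). The chain genes followed at 94.0 ± 30.4 for H2-Ab1, 89.4 ± 25.9 for H2-Aa and 76.7 ± 23.5 for H2-Eb1, which differed from each other by less than their spread. H2-DMa stood at 27.2 ± 4.79 nRPKM and H2-DMb1 at 21.0 ± 3.67, also within their spread. The lowest levels were 1.17 ± 0.389 nRPKM for H2-DMb2, 0.580 ± 0.209 for H2-Oa and 0.574 ± 0.0615 for Ciita. All 9 passed the filter on low counts. Of the other class II genes, H2-Ea, a pseudogene in the deposited annotation, had 0 counts in 23 of 23 libraries, which allows up to 0.0671 to 0.19 CPM by library for counting error. H2-Eb2 had 0 to 8 counts and was not tested. H2-Ob, the partner of H2-Oa, stood at 0.576 ± 0.119 CPM in WT T0 libraries.

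**Figure D1:**
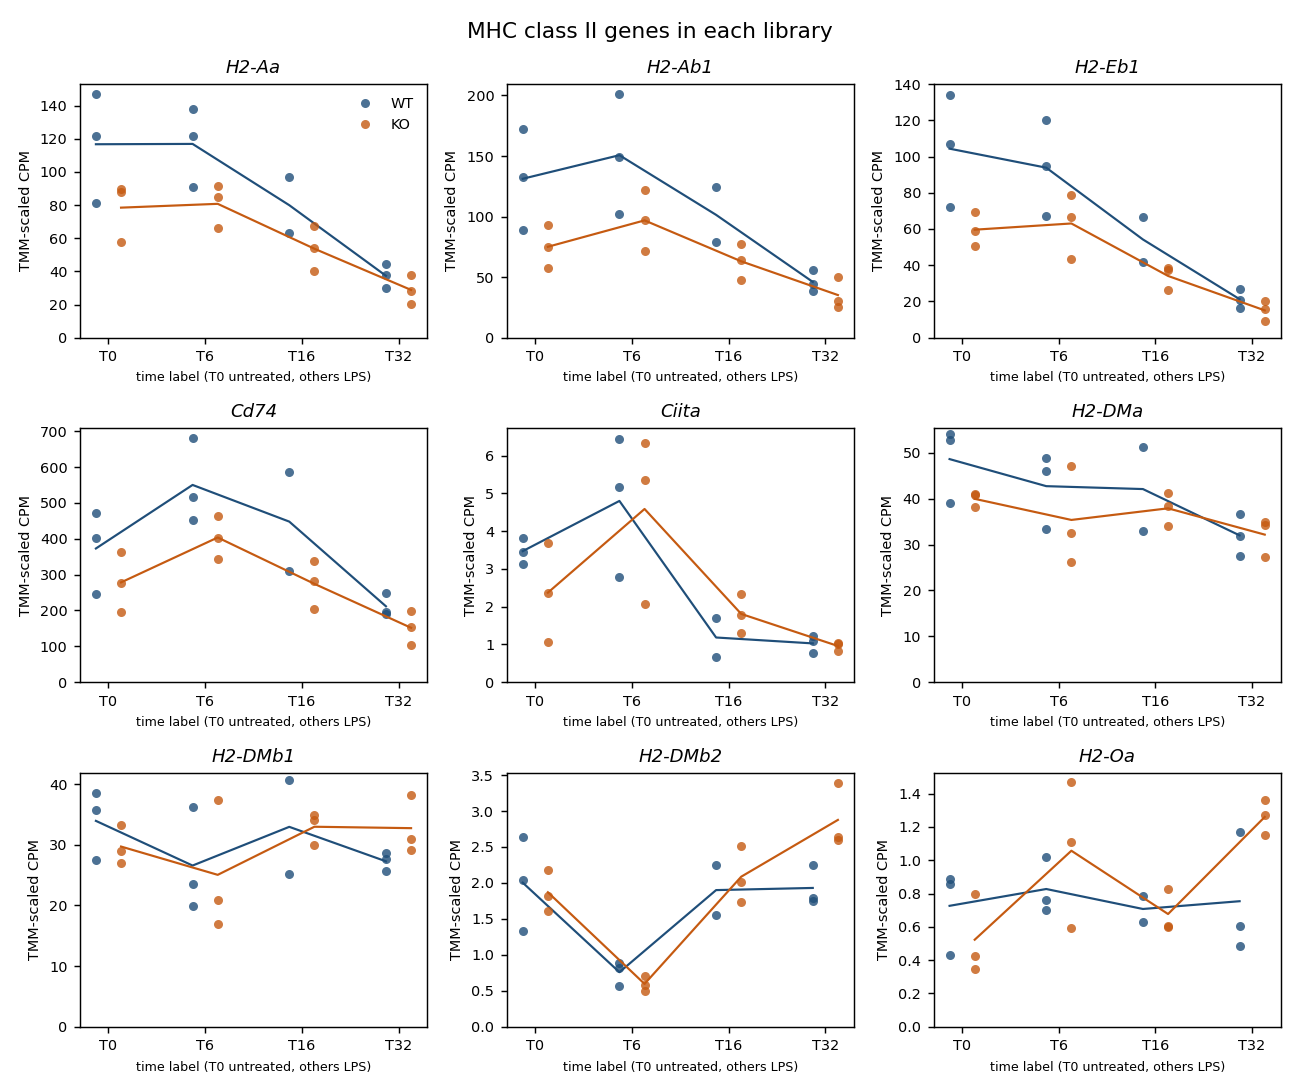
TMM-scaled CPM (vertical axis, linear, from 0) of each of the 9 genes in each of 23 libraries by time label (horizontal axis, evenly spaced labels), with WT in blue, KO in orange and lines through the group means. The chain genes and Cd74 end lowest at T32, H2-DMb2 dips at T6, and KO means of H2-Aa, H2-Ab1, H2-Eb1 and Cd74 lie under the WT means at every time label.

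The first comparison asked how the class II genes moved after LPS. With TMM scaling the chain genes were not called at T6 and were lowest at T32, in both genotypes. Library totals put H2-Aa and H2-Eb1 lower already at T6, where the median gene was lower too, as given below. In WT libraries H2-Aa was at 147, 122 and 81.2 CPM (counts per 1e+06 after TMM scaling of the library total, for replicates 1, 2 and 3) at T0, 122, 138 and 90.8 at T6, 63.1 and 96.8 at T16, and 37.6, 44.6 and 29.8 at T32. KO libraries gave 89.6, 88 and 57.8 CPM at T0, 84.6, 91.4 and 66.3 at T6, 40, 53.9 and 67.1 at T16, and 20.6, 28 and 37.8 at T32. Every T32 library lay below every T0 library of its genotype, as did those of 31.8% of all genes in WT and 26.2% in KO. H2-Aa, the alpha chain of H2-A, was 3.12-fold lower at T32 than at T0 in WT (log2 change −1.64 ± 0.27 SE, edgeR adjusted p = 7.8e-05) and 2.72-fold lower in KO (−1.45 ± 0.27, adjusted p = 0.00033). A gene counts as called where the adjusted p of edgeR's quasi-likelihood test is under 0.05. The comparisons with T0 share its libraries.

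H2-Ab1, its beta chain partner, moved with it. WT libraries held 172, 133 and 88.6 CPM at T0, 149, 201 and 102 at T6, 78.8 and 124 at T16, and 43.9, 56 and 38.2 at T32. In KO they held 75.1, 92.7 and 57.3 CPM at T0, 97, 122 and 71.5 at T6, 47.8, 63.8 and 77.5 at T16, and 25.7, 30.1 and 49.7 at T32. The T32 values lay below all T0 values in both genotypes. H2-Ab1 was 2.84-fold lower in WT (−1.51 ± 0.31, adjusted p = 0.00065) and 2.13-fold lower in KO (−1.09 ± 0.31, adjusted p = 0.0087). Without KO T32 replicate 1 the KO change was −0.91 and the call was lost (adjusted p = 0.051).

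H2-Eb1, the beta chain of H2-E, had the lowest T32 change of the 9 members in both genotypes. WT libraries gave 134, 107 and 72 CPM at T0, 94.6, 120 and 66.9 at T6, 42 and 66.4 at T16, and 20.6, 26.9 and 16.2 at T32. In KO the values were 58.8, 69.3 and 50.7 at T0, 66.6, 78.9 and 43.6 at T6, 26.3, 37.5 and 38.4 at T16, and 9.24, 15.7 and 20.2 at T32. Every T16 library was already below every T0 library in both genotypes, a separation found for 28.9% of all genes in WT and 29.5% in KO. The fall reached the threshold at T16 (WT −0.95 ± 0.34, adjusted p = 0.037; KO −0.81 ± 0.30, adjusted p = 0.037) and was 4.92-fold at T32 in WT (−2.30 ± 0.31, adjusted p = 9e-06) and 3.94-fold in KO (−1.98 ± 0.31, adjusted p = 5.5e-05). The T16 calls were lost without WT T0 replicate 1, WT T0 replicate 2 or WT T16 replicate 1 (−0.65 to −0.93, adjusted p = 0.072 to 0.27), and in KO without any single T16 library or without KO T0 replicate 1 or 2 (−0.65 to −0.90, adjusted p = 0.053 to 0.15).

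Cd74, the invariant chain gene, was not called against T0 before T32. WT libraries held 472, 402 and 245 CPM at T0, 680, 518 and 453 at T6, 310 and 586 at T16, and 190, 250 and 195 at T32. In KO libraries Cd74 was at 363, 277 and 195 CPM at T0, 465, 401 and 345 at T6, 204, 281 and 338 at T16, and 103, 153 and 199 at T32. The T32 range overlapped the T0 range in both genotypes. Cd74 was 1.76-fold lower at T32 in WT (−0.82 ± 0.30, adjusted p = 0.03) and 1.84-fold lower in KO (−0.88 ± 0.30, adjusted p = 0.024). Leaving out single WT libraries (T0 replicate 1 or 2, T32 replicate 1 or 3) gave −0.59 to −0.76 without a call (adjusted p = 0.079 to 0.15), and leaving out KO T0 replicate 1 or 2 or KO T32 replicate 1 or 2 gave −0.64 to −0.88 without one (adjusted p = 0.054 to 0.12).

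Per length, the proportions between these genes shifted. Cd74 was 2.42 to 2.65 times H2-Aa in the WT T0 libraries and 4.06 to 5.25 times at WT T32, as ratios of nRPKM levels. In KO libraries the ratio was 2.53 to 3.25 at T0 and 4.02 to 4.39 at T32. H2-Eb1 was 0.841 to 0.878 of H2-Aa at WT T0 and 0.52 to 0.576 at WT T32. H2-Ab1 was 1.02 to 1.09 of H2-Aa at WT T0, 1.05 to 1.36 at WT T6 and 1.09 to 1.2 at WT T32, and 0.784 to 0.985 at KO T0 and 1.01 to 1.23 at KO T32. These ratios are a description and were not tested.

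Ciita, the coactivator gene, was low throughout. WT libraries gave 3.83, 3.44 and 3.14 CPM at T0, 5.17, 2.79 and 6.44 at T6, 1.69 and 0.675 at T16, and 1.09, 1.21 and 0.778 at T32. In KO libraries the values were 3.69, 2.35 and 1.07 at T0, 6.34, 2.06 and 5.36 at T6, 1.31, 1.78 and 2.33 at T16, and 1.03, 0.834 and 1.01 at T32. At T6 replicate 2 was the lowest of its group in both genotypes, the same libraries whose mitochondrial share was higher; the part of that in the value was not tested. Ciita was not called at T6 (WT 0.48 ± 0.42, adjusted p = 0.34; KO 0.95 ± 0.42, adjusted p = 0.06). It was 2.88-fold lower than at T0 at T16 in WT (−1.52 ± 0.50, adjusted p = 0.023). Of the chain genes there, H2-Eb1 was called lower too (−0.95 ± 0.34, adjusted p = 0.037). H2-Aa and H2-Ab1 were not called (−0.54 ± 0.30 and −0.37 ± 0.34, adjusted p = 0.17 and 0.42). Differences between Ciita and the chain genes were not tested. In KO the T16 value of Ciita was −0.40 ± 0.43 (adjusted p = 0.47). The WT call at T16 was lost without WT T16 replicate 2 (−1.03, adjusted p = 0.21) or WT T0 replicate 1 (−1.43, adjusted p = 0.054).

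At T32 Ciita was 3.35-fold lower in WT (−1.74 ± 0.44, adjusted p = 0.0032) and 2.50-fold lower in KO (−1.32 ± 0.45, adjusted p = 0.025). The WT call held without any 1 library. The KO call was lost without KO T0 replicate 1 (−0.84, adjusted p = 0.15), and also without KO T0 replicate 2 or any single KO T32 library (−1.23 to −1.37, adjusted p = 0.052 to 0.084). From T6 to T16 Ciita fell by 2.0 on the log2 scale in WT (SE 0.51, adjusted p = 0.0035) and by 1.35 in KO (SE 0.43, adjusted p = 0.014). The WT call was lost without WT T16 replicate 2 (−1.51, adjusted p = 0.07), and the KO call without KO T6 replicate 1 (−1.05, adjusted p = 0.081) or KO T16 replicate 1 (−1.16, adjusted p = 0.065) and with library totals (−0.95, adjusted p = 0.076).

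With TMM scaling H2-DMa was called in 1 comparison and H2-DMb1 in none. H2-DMa ranged over 39.1 to 54 CPM in WT T0, 33.3 to 48.9 in WT T6, 32.9 to 51.3 in WT T16 and 27.5 to 36.7 CPM in WT T32 libraries. It was 1.52-fold lower at WT T32 than at T0 (−0.60 ± 0.21, adjusted p = 0.023), a call lost without WT T0 replicate 1 or 2 or WT T32 replicate 1 or 3 (−0.50 to −0.60, adjusted p = 0.059 to 0.098). In KO the H2-DMa change at T32 was −0.31 ± 0.21 (adjusted p = 0.24). The H2-DMb1 group means ran from 25.0 to 33.9 CPM, and its T32 change had a TMM-scaled 95% interval of −0.83 to 0.20 in WT and −0.38 to 0.66 in KO. H2-DMa thus made up 0.263 to 0.351 of the H2-Aa nRPKM level at WT T0 and 0.533 to 0.775 at WT T32.

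H2-DMb2, the second H2-DM beta chain gene, dipped at T6. WT libraries held 2.64, 2.04 and 1.33 CPM at T0, 0.567, 0.888 and 0.818 at T6, 1.55 and 2.25 at T16, and 2.25, 1.79 and 1.75 at T32. In KO libraries the values were 1.61, 2.18 and 1.82 at T0, 0.577, 0.707 and 0.5 at T6, 2.01, 2.52 and 1.73 at T16, and 2.6, 2.64 and 3.39 at T32. All T6 libraries lay below all T0 libraries, as for 35.3% of all genes in WT and 32.2% in KO. H2-DMb2 was 2.68-fold lower at T6 in WT (−1.42 ± 0.29, adjusted p = 0.00026) and 3.15-fold lower in KO (−1.65 ± 0.30, adjusted p = 7e-05), and was then 1.35 ± 0.31 (WT, adjusted p = 0.0016) and 1.81 ± 0.30 (KO, adjusted p = 4.1e-05) higher at T16 than at T6 on the log2 scale. Leaving out the 4 WT libraries that held Y-linked transcripts, the WT difference from T6 to T16 was 0.87 (adjusted p = 0.14), and a fit of only the groups compared gave 1.34 (adjusted p = 0.053). Its level per length was 1.79% to 8.43% of that of H2-DMb1. Of the 50-base sequences in H2-DMb2 transcripts 21.2% also occur in H2-DMb1, so the split of reads between these copies is uncertain. Summed, the pair changed by −0.40 in WT (adjusted p = 0.18) and −0.30 in KO (adjusted p = 0.3) at T6.

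H2-Oa had 10 to 49 counts per library, and 15.5% of its 50-base sequences occur in another gene. In WT libraries its values were 0.89, 0.86 and 0.428 CPM at T0, 0.7, 0.761 and 1.02 at T6, 0.626 and 0.788 at T16, and 0.487, 0.604 and 1.17 at T32. KO libraries had 0.427, 0.796 and 0.344 CPM at T0, 1.11, 1.47 and 0.591 at T6, 0.6, 0.604 and 0.826 at T16, and 1.15, 1.36 and 1.27 at T32. The 3 KO T32 values lay above all KO T0 values, as for 26.4% of all genes. H2-Oa was 2.01-fold higher at T6 (1.01 ± 0.41, adjusted p = 0.041) and 2.42-fold higher at T32 in KO (1.28 ± 0.39, adjusted p = 0.015), and was not called in WT (T6 0.20 ± 0.41, T32 0.05 ± 0.39). The interaction test of the T32 change between genotypes gave a difference of 1.23 ± 0.55 that was not called (adjusted p = 0.49). With libraries scaled by their totals the KO changes were 0.18 (adjusted p = 0.7) at T6 and 0.92 (adjusted p = 0.062) at T32, neither called. The T6 call was also lost without KO T0 replicate 1 or 3 or KO T6 replicate 1 or 2 (0.72 to 0.96, adjusted p = 0.094 to 0.17), and the T32 call without KO T0 replicate 3 (1.06, adjusted p = 0.072).

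In counts, 1 of 9 members was called at T6 in WT, lower, with 59.1% of all 15782 genes tested called there and 31.9% called lower. In KO at T6 1 was lower and 1 higher, against 58.6% called, 32.4% lower and 26.2% higher. At T16 2 of 9 were lower in WT, against 36% called and 17.2% lower, and 1 of 9 in KO, against 43.7% and 23.3%. At T32 all 6 members called in WT were lower, against 46.4% of all genes called and 21.9% called lower. In KO at T32 5 members were lower and 1 higher, against 38.2% called, 20% lower and 18.2% higher. The median change of the members at T32 was −0.82 in WT and −0.88 in KO, where the medians over all genes were 0 and −0.02. From T16 to T32, 2 members were lower in WT (H2-Aa −1.1 ± 0.29, adjusted p = 0.047; H2-Eb1 −1.35 ± 0.33, adjusted p = 0.032), against 2.91% of genes called and 1.57% lower, and 1 in KO (H2-Eb1 −1.17 ± 0.31, adjusted p = 0.046), against 2.55% and 1.81%. Without WT T16 replicate 2 the WT changes were −0.76 (adjusted p = 0.64) and −0.98 (adjusted p = 0.49), and without KO T32 replicate 1 that of H2-Eb1 in KO was −0.92 (adjusted p = 0.24); leaving out most other single libraries also lost the H2-Aa call. Library totals ended all 3 calls (−0.94 and −1.19 in WT, adjusted p = 0.087 and 0.057, and −1.08 in KO, adjusted p = 0.067). From T6 to T16, H2-DMb2 rose and Ciita fell in WT, against 42.2% called, 22.7% higher and 19.5% lower. In KO H2-DMb2 rose and H2-Eb1 and Ciita fell, against 46.1% called, 24.2% higher and 21.8% lower. The H2-Eb1 fall in KO was not called with library totals (−0.51, adjusted p = 0.17), without a filter on low counts (−0.84, adjusted p = 0.079), or without KO T6 replicate 1 or 2 or KO T16 replicate 1 (−0.70 to −0.84, adjusted p = 0.053 to 0.097).

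Scaling mattered most at T6. With library totals in place of TMM factors the median change over all genes at T6 was −0.94 in WT and −1.0 in KO. Then 5 members were called lower in each genotype and none higher (H2-Aa, H2-Eb1, H2-DMa, H2-DMb1 and H2-DMb2), where TMM scaling gave 1 lower in WT and 1 lower with 1 higher in KO. H2-Aa at T6 was −0.79 by totals in both genotypes (adjusted p = 0.0094 in WT and 0.0097 in KO), against 0.01 and 0.04 by TMM. By totals H2-Aa thus fell less than the median gene. H2-Eb1 was at −0.95 in WT and −0.75 in KO, H2-DMa at −0.99 and −1.01, H2-DMb1 at −1.15 and −1.08, and H2-DMb2 at −2.21 and −2.49. The share of all genes called lower by totals is not given here. At T32 the totals gave the same direction as TMM for each of the 5 genes H2-Aa, H2-Ab1, H2-Eb1, Cd74 and Ciita in both genotypes, with larger falls (H2-Eb1 −2.59 in WT and −2.33 in KO). By totals H2-DMa was also called lower at T16 in WT (−0.67, adjusted p = 0.021) and at T16 and T32 in KO (−0.52, adjusted p = 0.032, and −0.66, adjusted p = 0.011). H2-DMb1 was called by totals at T32 in WT (−0.62, adjusted p = 0.045) and from T6 to T16 in KO (0.78, adjusted p = 0.015).

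**Figure D2:**
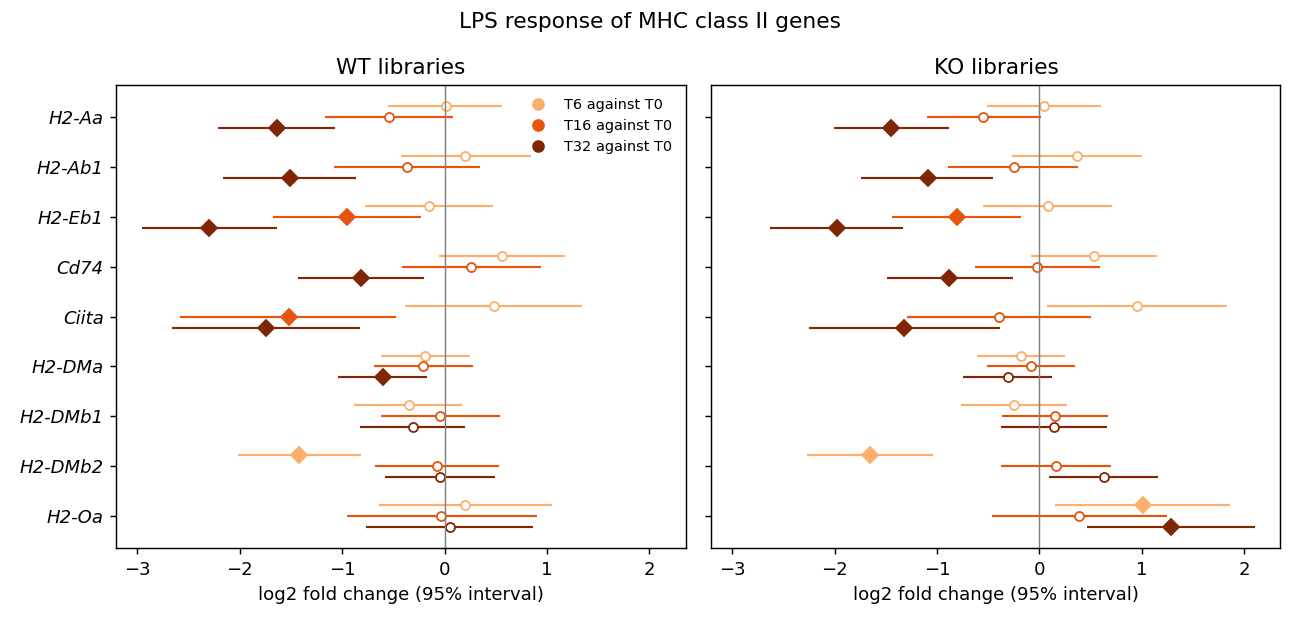
Log2 fold change (horizontal axis) of each gene at T6, T16 and T32 against T0 in WT (left) and KO libraries (right), with 95% intervals from the edgeR fit; filled diamonds are called at an adjusted p under 0.05 and open circles are not. The T32 values of H2-Aa, H2-Ab1, H2-Eb1, Cd74 and Ciita lie left of 0 in both panels.

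Some markers of other class II-bearing cells were also lower at T32. The summed level of 5 B cell markers was 33.9 to 90.5 CPM in WT T0 and 7.78 to 39.5 in WT T32 libraries, and 31.9 to 53.3 in KO T0 and 5.96 to 18.4 in KO T32 libraries. Most of it was Ighm (54.0 ± 26.2 CPM at WT T0, 13.6 ± 17.0 at WT T32), while Cd79a, Ms4a1 and Pax5 each stayed at or below 0.806 CPM in the T0 and T32 libraries. At T32 in WT 2 of the 5 were called lower and 1 higher, and in KO 2 were called lower. The 7 dendritic cell markers summed to 4.76 to 5.02 CPM in WT T0 and 2.82 to 4.2 in WT T32 libraries, and to 4.16 to 7.34 and 4.05 to 6.25 CPM in KO, where the ranges overlapped. Of the 6 tested, 3 were called lower at WT T32 and 4 lower and 1 higher at KO T32, where 21.9% and 20% of all genes were called lower. Between genotypes, averaged over time, Cd79b was lower in KO (−0.77 ± 0.18, adjusted p = 0.0045) and Cd79a, Ms4a1 and the dendritic cell gene Clec9a were higher (0.54 to 1.21, adjusted p = 0.0029 to 0.046). The part of these cells in the class II changes was not tested. In such bulk libraries fewer cells of a type and less RNA per cell cannot be told apart.

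The second comparison asked whether the libraries labelled KO differed from WT. At single time points no member was called: 0 of 9 at T0, T6, T16 and T32, where 1.95%, 0.298%, 7.65% and 6.39% of all genes were called. At an unadjusted p under 0.05 edgeR gave 3 members at T0 and 1 at each of T6, T16 and T32, where 1544, 1492, 3975 and 3040 of the 15782 genes tested had one. All 9 log2 differences were below 0 at T0, with a median of −0.46 against 0.00 over all genes. The numbers below 0 were 8 at T6, 6 at T16 and 5 at T32.

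The T0 levels showed the widest gaps in the chain genes. H2-Eb1 at T0 was 72 to 134 CPM in WT and 50.7 to 69.3 in KO libraries, with no overlap; every KO library lay below every WT library for 6.3% of all genes. Its difference was −0.81 (95% interval −1.44 to −0.18, adjusted p = 0.27). H2-Ab1 gave −0.80 (−1.44 to −0.16, adjusted p = 0.3) and H2-Aa −0.57 (−1.12 to −0.01, adjusted p = 0.49), with overlapping libraries. Cd74 differed by −0.42 (−1.03 to 0.19, adjusted p = 0.74). At T16 H2-Ab1 and H2-Eb1 were below all WT values in every KO library, a separation found for 21.5% of all genes with the 2 WT libraries there.

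Averaged over the 4 time points, 4 of 9 members were called, all lower in KO, against 22.3% of genes called and 10.3% called lower. H2-Eb1 was 1.56-fold lower (−0.64 ± 0.15, adjusted p = 0.0059) and H2-Ab1 1.55-fold lower (−0.63 ± 0.16, adjusted p = 0.007). H2-Aa and Cd74 were each 1.43-fold lower (−0.51 ± 0.14, adjusted p = 0.011, and −0.51 ± 0.15, adjusted p = 0.019). For these 4 genes the KO mean was under the WT mean at each of the 4 time points. This describes the values that make up the average and is no separate support for it. The fit treats the 23 libraries as independent. If the same mice gave libraries at several times, which the labels do not say, a mouse counts more than once in these p-values. With library totals H2-DMa was called as well (−0.34, adjusted p = 0.016). With TMM scaling the other 5 were not called: H2-DMa −0.17 (95% interval −0.40 to 0.05), H2-DMb1 0.00 (−0.27 to 0.27), H2-DMb2 0.07 (−0.22 to 0.37), Ciita −0.03 (−0.50 to 0.44) and H2-Oa 0.15 (−0.28 to 0.58). The interval for Ciita spanned 0 and also overlapped those of the 4 called genes, such as −0.8 to −0.23 for H2-Aa. Differences between Ciita and these genes were not tested.

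Only WT libraries held Y-linked transcripts, and the average was refitted with this in view. Without the 4 WT libraries that had them, H2-Eb1 alone stayed called. H2-Ab1 was then at −0.57 (adjusted p = 0.058), H2-Aa at −0.45 (adjusted p = 0.078) and Cd74 at −0.34 (adjusted p = 0.22). With their presence as a covariate Cd74 was at −0.38 (adjusted p = 0.13) and the 3 chain genes stayed called. Leaving libraries out also leaves fewer WT libraries to test with, and what ended the calls was not tested. Cd74 also lost its call without WT T16 replicate 2 alone (−0.38, adjusted p = 0.095).

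**Figure D3:**
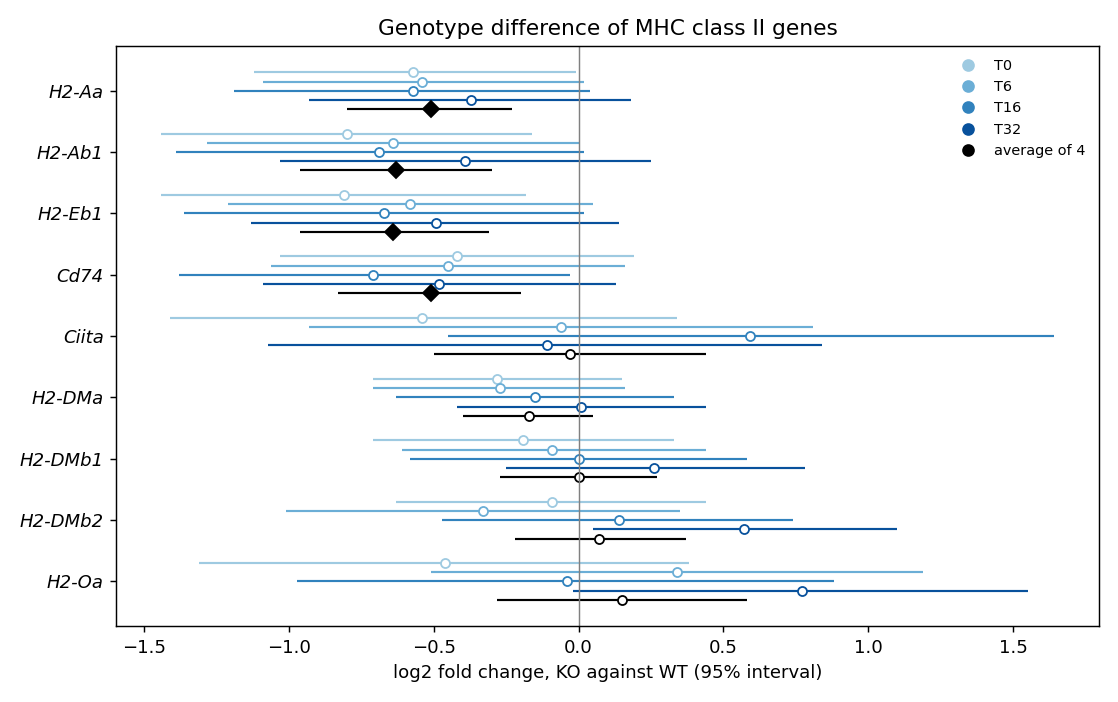
Log2 fold change of KO against WT libraries (horizontal axis) for each gene at T0, T6, T16 and T32 (light to dark blue) and averaged over the 4 (black), with 95% intervals; filled diamonds are called. H2-Aa, H2-Ab1, H2-Eb1 and Cd74 lie left of 0 in every comparison, and the called values are the 4 black diamonds at −0.51 to −0.64.

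At T32 the differences of H2-DMb1, H2-DMb2 and H2-Oa were above 0, none of them called. H2-DMb2 was 1.75 to 2.25 CPM in WT and 2.6 to 3.39 in KO libraries, without overlap, and its difference of 0.57 (95% interval 0.05 to 1.1) was not called (adjusted p = 0.21). H2-DMb1 was 25.6 to 28.6 CPM in WT and 29.1 to 38.2 in KO libraries, also without overlap, at 0.26 (−0.25 to 0.78, adjusted p = 0.66). Every KO library lay above every WT library for 17.5% of all genes at T32. H2-Oa differed by 0.77 (−0.02 to 1.55, adjusted p = 0.28).

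The genotype difference itself was not shown to change with time. In the joint test over the 3 LPS times 0 of 9 members were called by edgeR, where 0.456% of all genes were, and 0 had an unadjusted p under 0.05. From T0 to T6, T16 and T32 singly, 0 of 9 were called as well, against 0.101%, 0.0697% and 0.387% of genes, and the unadjusted p was under 0.05 for 0, 0 and 1 member. Intervals were wide: for H2-Aa the change of the difference from T0 to T32 lay between −0.59 and 0.98, and for Ciita from T0 to T16 between −0.23 and 2.49.

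Across the 23 libraries the chain genes kept together. Pearson correlations of log2 CPM were 0.98 for H2-Aa with H2-Ab1, 0.99 with H2-Eb1 and 0.91 with Cd74, and 0.96, 0.94 and 0.91 within groups. H2-DMa and H2-DMb1 gave 0.66 and, within groups, 0.88. Ciita gave 0.69 with H2-Aa over all libraries and 0.07 within groups. H2-DMb2 and Ciita gave −0.70 and −0.30. These are descriptions over libraries that share time points, treatment and scaling.

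By the same measure the non-member genes most like the mean of the standardised members, among 9277 candidates over 23 libraries, were Mcrip1 (r = 0.85), Myl6 (0.84), Lzts2 (0.82), Spcs2 (0.82) and Mir142hg (0.81). Those most like Ciita were Pspc1 (0.86) and Zbtb49, Rnf180, Pros1 and Pls3 (each 0.85).

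The remaining genes of the pathway were taken by list. Of 7 factors that bind class II promoters, 2 were called in the genotype average, against 22.3% of all genes, both higher in KO: Rfx5, a subunit of the X-box complex RFX (0.29 ± 0.08, adjusted p = 0.017), and Nfya, a subunit of the Y-box factor NF-Y (0.20 ± 0.07, adjusted p = 0.045). Library totals ended both calls (Rfx5 0.11, adjusted p = 0.42; Nfya 0.02, adjusted p = 0.87), the Y-linked covariate ended that of Rfx5 too (0.27, adjusted p = 0.063), and that of Nfya was lost in 14 of 23 fits without 1 library. At T6 in WT 3 rose and 2 fell, against 59.1% of all genes called. Rfx5 went from 14.6 ± 1.82 to 36.5 ± 1.69 CPM (1.33 ± 0.16, adjusted p = 7.8e-07), and Rfxank, another RFX subunit, fell by 1.59 (SE 0.18, adjusted p = 1.9e-07). At T32 in WT 2 of 7 were called, both lower, and in KO 0, with Rfxap (−0.80 ± 0.26, adjusted p = 0.016) and Rfxank (−0.44 ± 0.17, adjusted p = 0.041) the 2 in WT, against 46.4% of all genes called there. The Rfxank call was lost in 8 of 23 fits without 1 library (−0.35 to −0.48, adjusted p up to 0.16), and that of Rfxap without WT T0 replicate 1 (−0.72, adjusted p = 0.059), without WT T32 replicate 3 (−0.76, adjusted p = 0.053) or without the Y-holding WT libraries (−0.84, adjusted p = 0.063). The median change of the list was 0.37 at WT T6 and −0.14 at WT T32.

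Of 10 genes of interferon gamma signalling and Ciita control, 7 rose and 1 fell at T6 in WT, and the same numbers in KO, against 59.1% and 58.6% of all genes called. The lowest p in WT belonged to Jak2, whose product is a kinase bound to the interferon gamma receptor (5.07 ± 0.24, adjusted p = 1.6e-12). Next came Irf1, which acts on a Ciita promoter (2.25 ± 0.21, adjusted p = 1.5e-08), and Spi1, the gene of the myeloid factor PU.1 (2.04 ± 0.20, adjusted p = 3.4e-08). The median change of the list at WT T6 was 1.84, beside −0.14 over all genes. At T32 in WT 5 were higher and 2 lower, against 46.4% of all genes called and 21.9% called lower. Jak2 was 2.53 ± 0.22 above T0 (adjusted p = 3.1e-08) and Socs1 was higher as well (1.83, adjusted p = 0.0021). Usf1 was lower (−1.08, adjusted p = 0.0094), as was Ciita. In the genotype average 3 were called, against 22.3% of all genes, all higher in KO: Jak2 (0.62 ± 0.11, adjusted p = 4e-04), Irf1 (0.44 ± 0.10, adjusted p = 0.0047) and Ifng. Ifng, the gene of interferon gamma itself, had 0 to 3 counts in each WT library and 0 to 28 in each KO library, too few for a fold, and its call was lost in 12 of 21 fits without 1 library. At T0 0 of 10 were called between genotypes by edgeR, and at T16 1, Jak2 (0.92 ± 0.24, adjusted p = 0.023), against 1.95% and 7.65% of all genes. That T16 call was lost without WT T16 replicate 2 (0.61, adjusted p = 0.33), without the Y-holding WT libraries (0.61, adjusted p = 0.39), with library totals (0.72, adjusted p = 0.055) and without KO T16 replicate 1 or 3 (adjusted p = 0.073 and 0.074).

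Of 6 endosomal processing genes 4 were higher and 1 lower in the KO average, against 22.3% of all genes called and 10.3% lower. Ctsl, a cathepsin, was higher by 0.94 ± 0.09 (adjusted p = 8.1e-07) and stood at 1870 ± 384 CPM in WT and 4700 ± 388 CPM in KO libraries at T32 (1.33 ± 0.17, adjusted p = 9.8e-05). Ctss, the cathepsin that removes the invariant chain in many antigen-presenting cells, was higher by 0.49 ± 0.09 (adjusted p = 0.00073). Ctsb was higher by 0.29 ± 0.08 (adjusted p = 0.0094), but not called with library totals (0.12, adjusted p = 0.13). The called lower gene was Ifi30, a thiol reductase (−0.29 ± 0.08, adjusted p = 0.013). The median of the list was 0.37, beside −0.17 for the 9 members and −0.01 over all genes. At T32 in WT 3 of 6 rose and 1 fell, against 46.4% of all genes called and 21.9% called lower. Sppl2a, a protease that clears the invariant chain stub, rose by 1.60 ± 0.23 (adjusted p = 1.7e-05), and Ctsl fell by 0.83 (SE 0.17, adjusted p = 0.00061).

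The 3 surface turnover genes were all called at T32 in both genotypes, against 46.4% of all genes in WT and 38.2% in KO. March1, whose product is a ubiquitin ligase that sends class II from the surface for degradation, was higher than at T0 by 2.77 ± 0.23 in WT (adjusted p = 1.8e-08) and 2.65 ± 0.23 in KO (adjusted p = 2.9e-08). March8, a related ligase, was higher by 0.72 ± 0.20 in WT (adjusted p = 0.0063), but not called with library totals (0.40, adjusted p = 0.093). Cd83, whose product opposes that ligase, went from 48.6 ± 13.7 CPM at T0 to 278 ± 34.1 at T6 and 13.2 ± 2.76 at T32 in WT (T32 against T0 −1.88 ± 0.24, adjusted p = 5e-06). In the genotype average March1 was higher in KO (0.46 ± 0.11, adjusted p = 0.0053) and Cd83 lower (−0.36 ± 0.12, adjusted p = 0.041). March1 was not called with library totals (0.28, adjusted p = 0.057), and the Cd83 call was lost in 15 of 23 fits without 1 library and under 6 of 10 other alternatives (−0.15, adjusted p = 0.48, without the Y-holding WT libraries). H2-Ob was called in 1 comparison, lower at T32 in KO (−1.51 ± 0.48, adjusted p = 0.017), from 16 to 47 counts at T0 and 7 to 12 at T32.

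**Figure D4:**
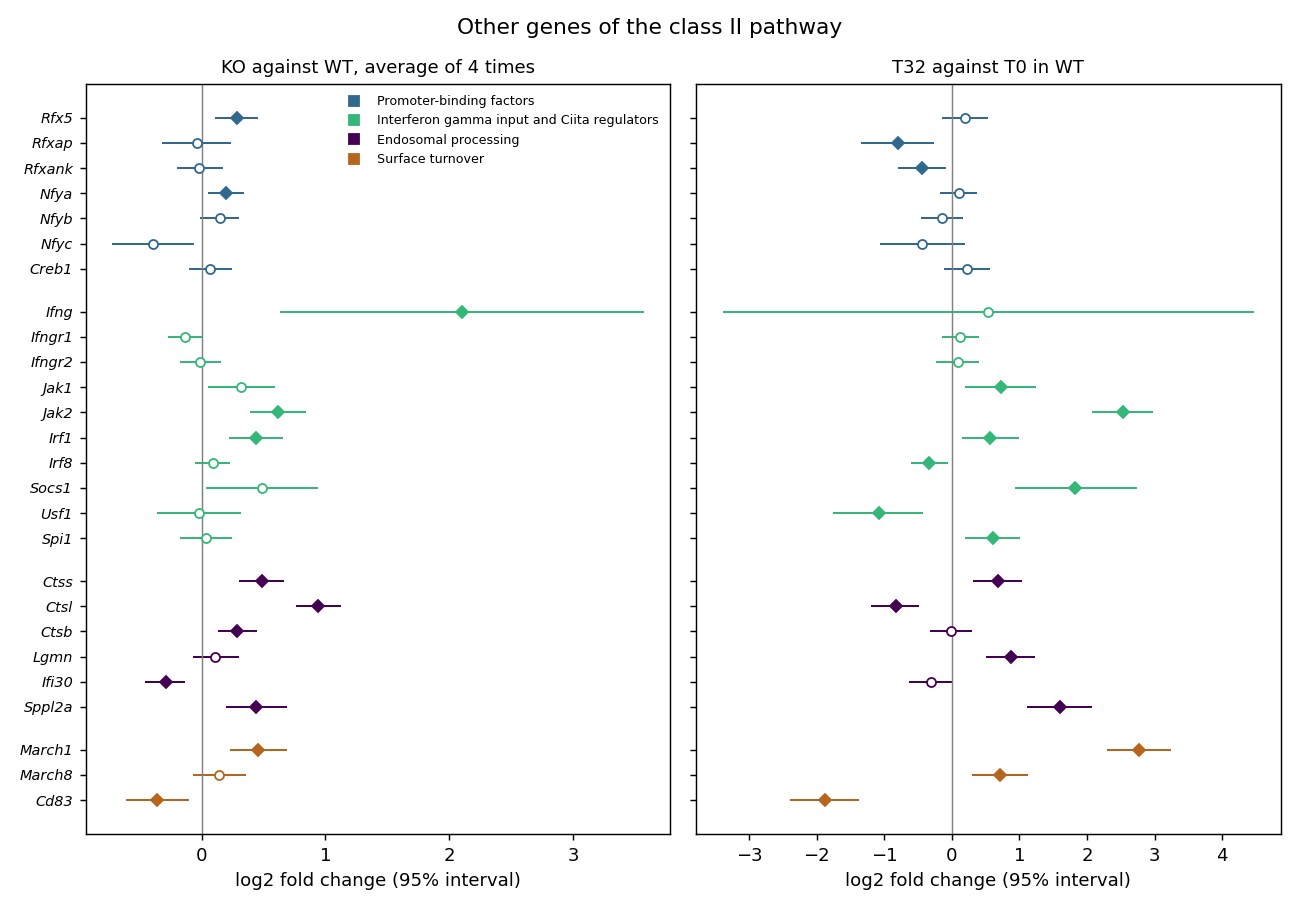
Log2 fold change (horizontal axes) of the other tested pathway genes, coloured by list, for KO against WT averaged over the 4 time points (left) and for T32 against T0 in WT (right), with 95% intervals; filled diamonds are called. Jak2, Irf1, Ctsl, Ctss and March1 lie right of 0 on the left, and March1 and Jak2 lie above 2 and Usf1 and Cd83 below −1 on the right.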

How the data were processed

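RNA was sequenced from 23 libraries; the labels gave genotype and time, which set the groups. The labels' protocols name a TruSeq kit that keeps no strand, so sense and antisense reads are mixed. Alignment used GSNAP and GRCm38 per the submitters' processing notes, with no version named there. The authors deposited raw counts per gene. They also deposited nRPKM, an RPKM adjusted by size factors per the file headers. Each nRPKM equalled count over gene size and 1 factor per library, the factor being 0.718 to 1.68 times the library total. Series and single-library tables held the same values for 23 of 23 libraries.

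Tests used edgeR 4.0.16 in R 4.3.3 on the counts: filterByExpr (minimum count 10) left 15782 genes, TMM factors were 0.677 to 1.45, and a robust quasi-likelihood fit gave 1 mean per genotype and time over 23 libraries. P-values were adjusted by Benjamini-Hochberg across those genes. SE and 95% intervals follow from the F statistic. No replicates were merged, since each pair differed beyond sampling noise (chi-square over its degrees of freedom at least 13.92). Loci are from GENCODE and promoters from RefSeq.

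The members and gene lists were chosen with earlier results of these data known, and 2 genes of those lists are not reported here. All 9 members are named; from each list, the counts called and up to 3 genes per comparison with the lowest p, with levels, Ifng, Ctsb, the factors called at T32 and H2-Ob added after their values were seen. Alternatives were other scalings, no filter, DESeq2 1.42.0, covariates and left-out libraries. Replicate numbers come from the deposited sample table, not from the labels. At T6 same-numbered WT and KO libraries deviated together (r = 0.33, 0.59 and 0.36), and a block on the number changed no call there.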

Additional observations from a re-analysis of the deposited data

How the results depend on the processing

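Over 81 results for single genes and 2693 alternatives, 2479 kept the direction and the side of the threshold, 211 lost a call, 2 gained one and 1 reversed: Ctss at T6 in WT was −0.35 with library totals (adjusted p = 0.048) and 0.45 with TMM. Many of the fits without 1 library left out one from a group not compared, and results without a call were counted too. The tally is thus no measure of how firm the calls are. The numbers of members called moved as follows. Library totals gave 5 at T6 in each genotype, 4 at T16 in WT, 3 at T16 in KO and 0 from T16 to T32 in each. Without a filter on low counts there were 1 at T16 in WT, 1 at T6 in KO, 0 at T16 in KO and 0 from T16 to T32 in each. Y-linked transcripts as a covariate gave 1 from T16 to T32 in WT. Without the 4 WT libraries holding them there were 1 in the genotype average, 0 at T16 in each genotype, 0 from T6 to T16 in WT and 0 from T16 to T32 in each. Fits on the groups compared alone gave 1 at T16 in WT, 1 at T6 in KO, 1 from T6 to T16 in WT, 0 from T16 to T32 in WT and 2 in KO. DESeq2 gave 4 from T16 to T32 in WT and 2 in KO. Added after seeing the data, leaving out both T6 replicates 2 gave 2 at T6 in WT, and leaving out KO T0 replicate 1 with WT T16 replicate 2 gave 1 at T16 in WT, 0 at T16 in KO and 0 from T16 to T32 in WT. The cause was not tested.

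Leaving out each library in turn gave 0 to 1 members between genotypes at T16, 3 to 4 in the average, 1 to 2 at T6 in WT, 0 to 2 at T16 in WT, 4 to 6 at T32 in WT, 1 to 3 at T6 in KO, 0 to 1 at T16 in KO, 3 to 7 at T32 in KO, 1 to 3 from T6 to T16 in WT, 1 to 4 in KO, 0 to 4 from T16 to T32 in WT and 0 to 1 in KO. Where WT T16 was left with 1 library, that library was assumed to vary like the other groups. The replicate block, also added after seeing the data, gave 1 member at T16 (Cd74, −0.83, adjusted p = 0.029) in place of 0 and moved no other number of members called between genotypes by over 1.5 times. Outside T6 the pairing correlations were low, 0.07 to 0.16 at T0, 0.01 to 0.05 at T16 and −0.32 to 0.03 at T32. At T0 each KO library still correlated best with the same-numbered WT library. At T16 the deviations of the 2 WT libraries from their mean mirror each other, so a best match there gives only the sign of r. At T32 2 of the 3 pairs did not correlate best with their own number. Whether libraries are paired outside T6 is not known. The WT library with Y-linked transcripts was replicate 2 at T0 and T16, replicate 1 at T6 and replicate 3 at T32. The number therefore need not mark the same mouse at each time. In the order of the sample names it was the last WT library at every time, an order not used in any fit. H2-Oa, H2-DMb2 and Ciita rest on few counts, so small changes in them were not detectable at this depth.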
